A study of Oncorhynchus mykiss with 23 samples.

Results

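The comparison concerned fast muscle of rainbow trout after 11 days of refeeding, set against fast muscle of trout that had never been fasted. Its members were the 9 arrays of both conditions out of 23 arrays in the series: 5 refed fish (termed RF11) and 4 control-fed fish (termed C0), chosen by their labels. All fish came from a spring strain of 1-year-old rainbow trout (Oncorhynchus mykiss). The experimental fish were deprived of food for 30 days and then refed at a rate 3 times the satiation ration, and RF11 fish were killed at day 41 of the experiment, after 11 days of that ration. C0 fish were fed to satiation throughout in a separate tank and were killed at day 30. Feeding history, tank and sampling day therefore cannot be told apart in this contrast. The remaining arrays held fasted fish (F0) and fish refed for 4 (RF4) or 36 days (RF36), which entered the statistical model and are described at the end. The study's methods state 5 fish per condition, with 1 control sample discarded for lack of signal. RNA came from a piece of fast muscle taken beneath the dorsal fin, 1 fish per array, so that levels refer to the whole tissue, and fewer cells of a type cannot be told apart from less RNA per cell.

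Fast muscle is the glycolytic bulk of the trout myotome and the main protein reserve of the fish. During food deprivation muscle is known to burn fatty acids, to spare glucose and to break its own proteins down through the ubiquitin-proteasome and autophagy-lysosome routes, under control of FoxO transcription factors and of the TOR kinase that senses amino acids and insulin-like signals. When food returns, TOR activity is known to favour ribosome assembly and translation, which set the rate of protein deposition in the fibres. Genes of these routes are described below in that order: fuel use, protein breakdown, growth signalling, protein synthesis, mitochondria, and then the structural and myogenic genes.

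The level of a probe is given here as log2 of its background-corrected intensity minus the 75th percentile of that array, so that 0 is the brightness below which 75 percent of the probes of an array lie. A difference of 1 is a 2-fold change, and levels are comparable between fish for 1 probe but not between probes. Between 48.0% and 67.2% of spots were well above background on the 9 arrays and the number of fish limits the precision. Control fish 1 stood apart: it had the highest share of spots above background (67.2%), and the gap between its 75th percentile and its median was 1.34 against 1.85 to 2.39 on the other arrays. Its mean correlation across probes was 0.906 with the RF11 arrays and 0.931 with the other controls. Control fish 3 was nearer to the RF11 arrays (0.944) than to the other controls (0.938). These correlations are a description over genes that are not independent replicates. Every list and every named gene was fitted with and without control fish 1, and also without each other fish in turn, which is named below where it moved a list's count of calls by markedly. The arrays lay on 3 slides that each held fish of both groups.

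Of 31987 probes that passed the brightness filter, 7056 differed between RF11 and C0 (22.1%; limma, Benjamini-Hochberg adjusted p under 0.05): 4837 were higher in refed fish (15.1%) and 2219 were lower (6.94%). Without control fish 1 the count was 5552 (17.4%; 12% higher and 5.32% lower), and 4841 probes were called in both fits, all in the same direction. Values of the 5 refed and 4 control fish did not overlap at all for 15.7% of the probes tested, with refed fish above for 11.9% and below for 3.76%. The split between directions depended on the scaling: 68.6% of called probes were higher with the 75th percentile, 93.9% when each array was scaled to its median, and 52.3% with normexp background correction. Under median scaling the median difference of all probes moved from -0.06 to 0.27, so each gene group below is read against the median of all probes. Within slides, the called probes kept their direction for 98.2% to 99.5% of probes. These are the arrays the calls were made on, so the slide values describe evenness and are no separate test.

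Names could be given to 641 of the genes tested, by 1 probe each. Of these, 240 were called (37.4%): 76 were higher (11.9%) and 164 were lower (25.6%). Only 38 of them carry a name in the scanner files, of which 3 were higher and 5 lower (8 of 38, 21.1%). The other 603 names come from the study's heat-map list, which was selected for differences among the feeding conditions in these same fish. Only 1252 rows of that list, which the study ordered by clustering of expression, could be read. Names therefore cover part of it, and each gene list below holds only the members named there. Counts of named genes below are thus not independent evidence of a direction and are set against 11.9% and 25.6%. Names are homology hits and do not separate the duplicated gene copies of trout.

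The labelled tissue was checked against its markers. All 5 fast fibre markers with a named probe were well above background on all 9 arrays. None of them passed the test (limma), 1 being higher and 1 lower at an unadjusted p under 0.05, but the light chain MYL1 was lower without control fish 3. A probe outside the marker list that the scanner file names only Fast_myosin was also bright on all 9 arrays and was lower (-0.72, adjusted p = 0.0447), a call lost without control fish 1 (adjusted p = 0.155). Parvalbumin (PVALB), the calcium buffer of fast fibres, differed by 0.00 (adjusted p = 0.995). None of the 2 slow fibre markers tested passed (limma), with a median difference of 0.18. A probe named only Slow differed by -0.49 (adjusted p = 0.866), with an SD of 2.27 in refed and 4.97 in control fish. Another, named only slow, differed by -1.09 (adjusted p = 0.649), with SDs of 1.77 and 4.82. Control fish thus varied widely in these probes. Of 3 leukocyte markers 1 was lower, CYBB, the phagocyte oxidase subunit, with a difference of -1.26 (adjusted p = 0.010). Of 5 endothelial markers 1 was lower, the tight-junction protein CLDN5, with a difference of -1.24 (adjusted p = 0.000341). None of the 5 fibroblast markers passed the limma test (1 lower at an unadjusted p under 0.05), with a median difference of -0.46 (-0.61 without control fish 1). No red blood cell or adipocyte marker had a named probe that passed the filter. The mean level of the marker list was -0.07 to 0.37 in refed and -0.42 to 0.80 in control fish for leukocytes, -0.72 to -0.22 and -0.73 to 0.06 for endothelium, and 4.12 to 5.08 and 4.63 to 5.38 for fibroblasts, with overlap in each. The part of these cell types, and of slow fibres, in the results below was not tested.

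Genes that govern the choice between fat and glucose as fuel had the lowest median difference of the 15 functional lists. Among 13 tested genes of fatty acid oxidation and fuel choice, 7 were lower in refed fish and 0 were higher, against 25.6% and 11.9% of all named genes. The median difference of the list was -1.14, against -0.06 for all probes. Without control fish 1, 8 of 13 were lower. Without control fish 3 the median was -0.72 and 7 were lower. Over the 9 members bright on all 9 arrays it was -0.63, where the growth signalling list was lowest (-0.70). Among those lower were a pair of kinases that switch off pyruvate dehydrogenase and the carnitine transferase that admits long-chain fatty acids to mitochondria.

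CPT1A, carnitine O-palmitoyltransferase 1, catalyses the entry of long-chain fatty acids into mitochondria. Its levels were -4.18, -1.27, -2.40, -2.27 and -1.11 in the 5 refed fish. They were 1.37, 1.34, 3.18 and 3.21 in the 4 control fish, in order of fish number. The groups did not overlap, and control fish 3 and 4 were higher than control fish 1 and 2. The difference was -4.52 (SE 0.59, adjusted p = 7.66e-06), a 22.9-fold lower level, and 2 of 2 probes had the same sign. On 1 of the 5 RF11 arrays the probe was not well above background.

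PDK1, a kinase that phosphorylates and inhibits pyruvate dehydrogenase and so limits entry of glucose carbon into the citric acid cycle, measured -1.61, 0.26, -2.42, -2.05 and -1.67 in refed fish and 2.05, 2.81, 2.88 and 3.15 in control fish. Every refed fish lay below every control fish, with a difference of -4.22 (SE 0.53, adjusted p = 4.4e-06), and 1 RF11 array was not well above background. PDK2, a second kinase of this family, was not well above background on any RF11 array and measured -1.89, -1.25, -1.34 and -1.46 in the control fish. It was at least 4.29-fold lower in refed fish (adjusted p = 0.000118). Such a bound, used for probes too dim in 1 group, sets the bright group's mean against the dimmest level still measurable on the arrays of the dim group. List medians are the same with such genes at their fitted difference or at their bound.

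A further probe of the array, named in the scanner file only by the truncated word carnitine, was lower (difference -3.40, adjusted p = 9.01e-07), and its gene is not known beyond that word. HACL1, which shortens branched and hydroxylated fatty acids in peroxisomes, was lower (difference -1.35, adjusted p = 0.000344). FDPS (-1.21, adjusted p = 0.000470), an enzyme of sterol synthesis rather than of fatty acid oxidation, was lower as well. The dehydrogenases of the oxidation spiral itself did not pass the test, with ACADM at -0.10 (adjusted p = 0.816) and ACADS at -1.14 (adjusted p = 0.0842). Within slides the median of the list was -0.98, -0.11 and -1.34 on slides 1, 2 and 3, and slide 2 is the one that holds control fish 1.

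**Figure D1:**
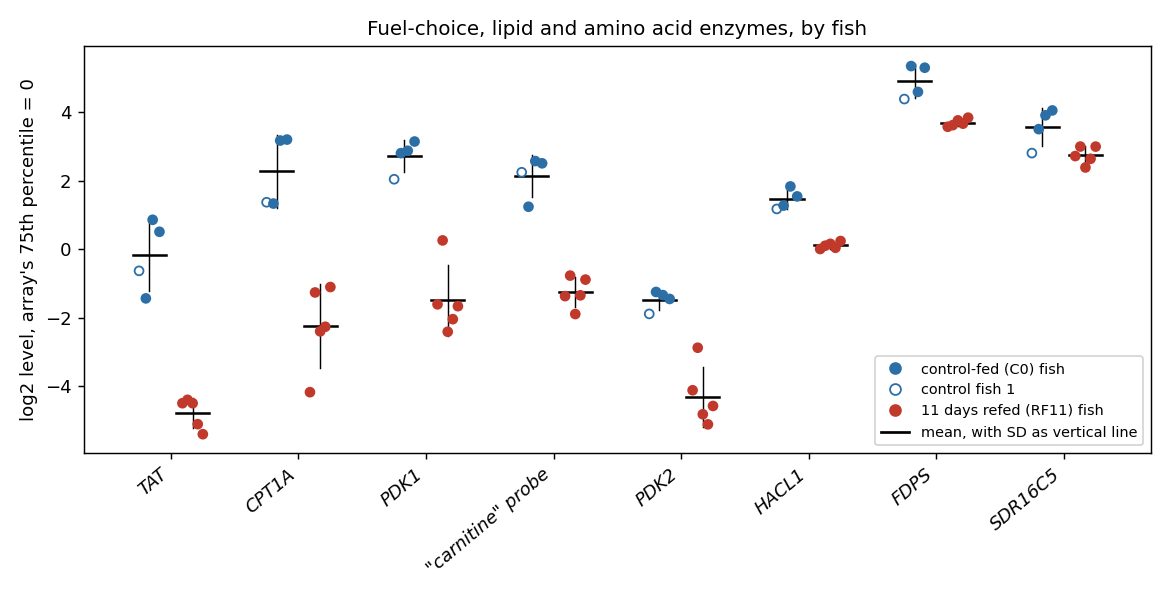
Levels of fuel and amino acid genes in each refed (RF11, 5 fish) and control-fed (C0, 4 fish) trout, in log2 units relative to the 75th percentile of each array. Points are fish, the open circle is control fish 1, black bars are group means and vertical lines SD. For CPT1A, PDK1, PDK2 and TAT every refed fish lies below every control fish.

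TAT, tyrosine aminotransferase, opens the breakdown of tyrosine and is a classical fasting-induced enzyme of mammalian liver. TAT levels were -4.51, -4.41, -4.51, -5.12 and -5.41 in refed fish, all not well above background. Control fish measured -0.63, -1.44, 0.86 and 0.51. The groups were separated by a wide gap, and TAT was at least 11.2-fold lower in refed fish (adjusted p = 6.19e-08). The 14 other tested genes of nucleotide and amino acid metabolism counted 1 higher and 1 lower. Among them ADK, which recycles adenosine into AMP, was higher (1.07, adjusted p = 0.00273) and the pyrimidine nucleotidase NT5C3 was lower (-1.42, adjusted p = 0.00380). The list as a whole counted 1 higher and 2 lower of 15, against 11.9% and 25.6% of all named genes. Its median of 0.21 changed sign under quantile normalization (-0.02). Without refed fish 5 the count was 3 higher, with CAD and PPAT of nucleotide synthesis added, and without control fish 2 or 4 it was 2, with CAD added.

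Most glycolysis and sugar genes did not pass the test. Of 8 tested, 1 was higher and 1 was lower, against 11.9% and 25.6% of all named genes. So few members do not set the list apart from those shares. The lysosomal glucosidase GAA was lower as well without control fish 1 (adjusted p = 0.0292). PHKA1, a regulatory subunit of the kinase that activates glycogen phosphorylase, measured -0.16, 0.81, 0.54, 1.13 and 0.80 in refed fish and 1.36, 2.81, 2.90 and 2.55 in control fish. All refed fish lay below the control range and the difference was -1.78 (SE 0.35, adjusted p = 0.000760). CKM, the muscle creatine kinase that buffers ATP, was higher by 0.95 (adjusted p = 0.00124). The glycolytic enzymes PKM (0.25, adjusted p = 0.363) and TPI1 (-0.08, adjusted p = 0.854) did not pass the test.

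Many autophagy genes were lower in refed fish than in fish fed to satiation. Of 19 tested, 12 were lower and 0 were higher, against 25.6% and 11.9% of all named genes. The median difference was -0.60. The mean level of the list was 0.16 to 0.56 in the 5 refed fish and 0.95 to 1.46 in the 4 control fish, so the groups did not overlap. The genes that were lower covered several steps of the route, from the proteins that decorate the autophagosome to the receptors that load it and the GTPase that leads it to the lysosome. Without control fish 1, 12 of 19 were lower, and under array median scaling 7 were, with a list median of -0.27 against 0.27 for all probes. With the 9 arrays alone in the model 9 of 19 were lower.

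TP53INP2, which carries LC3 out of the nucleus to nascent autophagosomes, measured -0.40, 1.10, -0.84, 0.21 and 0.10 in refed fish and 2.86, 2.76, 2.83 and 3.45 in control fish. No refed fish came near the control range, and the difference of -2.94 (SE 0.33, adjusted p = 1.32e-06) is a 7.68-fold lower level. MAP1LC3B, the lipid-anchored protein of the autophagosome membrane, measured 2.16, 0.91, 1.60, 1.42 and 1.68 in refed fish and 2.54, 3.46, 2.83 and 3.95 in control fish. The groups again did not overlap (difference -1.64, SE 0.31, adjusted p = 0.000577; 2 of 2 probes lower). Its relative MAP1LC3A, on a probe of its own, differed by 0.04 (adjusted p = 0.913) and did not pass the test.

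CALCOCO1, a cargo receptor of autophagy, was lower (difference -1.79, adjusted p = 4.12e-05). Its level in control fish 1 was the lowest of the controls, and without that fish the difference was -2.06. ATG4B, the protease that primes LC3 for lipid attachment, was lower (difference -1.51, adjusted p = 0.000380). ZFYVE1, a marker of the membrane from which autophagosomes form, was lower (difference -1.66, adjusted p = 0.000161). Smaller differences were called for the receptor NBR1 (-1.05, adjusted p = 0.00134), which was well above background on only 2 RF11 arrays. RAB7A, which directs late endosomes and autophagosomes to the lysosome, differed by -1.04 (adjusted p = 0.000217). PIK3R4, TECPR2, BNIP3L, ATG12 and ATG13 were also lower. Of these, BNIP3L, a mitophagy receptor, was no longer called without control fish 1 (adjusted p = 0.0641), and ATG12 was no longer called with the slide as a block. The receptor SQSTM1 did not pass the test (-0.57, adjusted p = 0.0566) but did so without control fish 1 (adjusted p = 0.0191). ATG4A (-0.36), ATG101 (-0.35) and CALCOCO2 (-0.27) did not pass in either.

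Genes of insulin, growth hormone, TOR and myostatin signalling followed with a median difference of -0.70. Of 14 tested, 7 were lower and 1 was higher, against 25.6% and 11.9% of all named genes. Those lower included both genes that restrain growth and the receptor that promotes it. Under array median scaling the counts were 4 lower and 1 higher, with a median of -0.37. Without control fish 1 they were 9 and 1. The mean level of the list was 0.36 to 0.66 in refed fish and 0.79 to 1.40 in control fish, with no overlap.

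CCNG2, cyclin G2, a FoxO target known to slow the cell cycle, measured -1.39, -0.11, -1.98, -0.99 and -0.54 in refed fish and 1.27, 0.74, 1.41 and 1.17 in control fish. All refed fish lay below the control range (difference -2.15, SE 0.30, adjusted p = 2.08e-05). SLC38A9, the lysosomal amino acid sensor that activates TOR complex 1, measured -1.91, -1.25, -1.26, -0.97 and -0.80 in refed fish and 0.08, 0.85, 0.39 and 0.54 in control fish. All refed fish again lay below the controls (difference -1.70, adjusted p = 0.000128). DEPDC5, a subunit of the complex that inhibits TOR complex 1 when amino acids are scarce, was lower (difference -1.33, adjusted p = 4.58e-05; 2 of 2 probes). FLCN, folliculin, which acts on the GTPases that recruit TOR to lysosomes, was lower (difference -0.92, adjusted p = 0.000390).

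The growth hormone receptor GHR measured 0.01, -0.32, -0.88, -1.10 and -0.77 in refed fish and 0.47, 1.22, 0.59 and 0.61 in control fish. The groups did not overlap, and GHR was lower (difference -1.34, SE 0.27, adjusted p = 0.000859). EIF4EBP3L, a protein that holds the cap-binding factor eIF4E inactive until TOR phosphorylates it, was lower (difference -1.03, adjusted p = 0.00129). SOCS7, a suppressor of cytokine signalling, was lower as well (-1.23, adjusted p = 0.00939). The TOR inhibitor TSC2 did not pass the test (-0.18, adjusted p = 0.593).

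**Figure D2:**
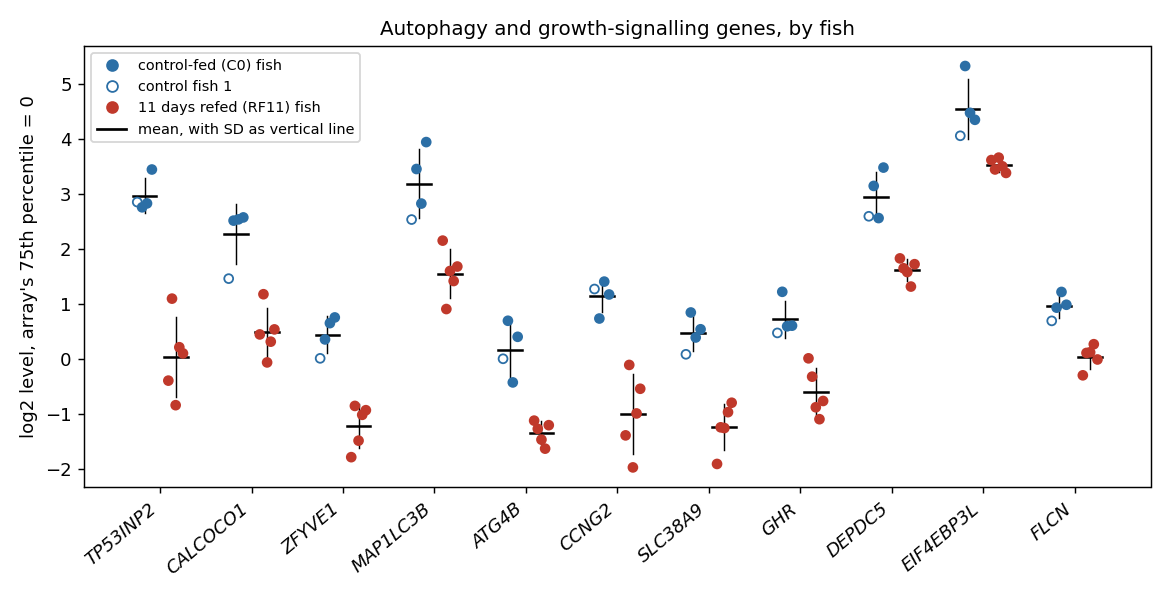
Levels of autophagy and growth signalling genes in each refed (RF11, 5 fish) and control-fed (C0, 4 fish) trout, in log2 units relative to the 75th percentile of each array. Points are fish, the open circle is control fish 1, black bars are group means and vertical lines SD. TP53INP2, CCNG2 and GHR were below every control fish in all 5 refed fish.

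Ubiquitin and protease genes on the list went both ways: of 31 tested, 9 were lower and 5 were higher. These shares are near the 25.6% and 11.9% of all named genes. The median was 0.00, and -0.20 under quantile normalization. Array median scaling gave 5 lower and 10 higher. Without control fish 2, and likewise without refed fish 2, 3 were higher. The best known muscle ligase of atrophy, TRIM63 (MuRF1), measured -0.61, -0.54, -1.19, -1.16 and -0.71 in refed fish and -0.68, -0.60, -1.14 and -0.67 in control fish. The ranges overlapped and the difference was -0.07 (SE 0.20, adjusted p = 0.825). The probe of FBXO32 (atrogin-1) was above background on 1 of 5 RF11 and 2 of 4 C0 arrays and was not tested. The list does not hold every named ubiquitin ligase. TRIM39 (-2.65), TRIM21 (-2.20) and ZNRF2 (-1.36, adjusted p = 0.00262) lie outside it, were lower by limma and do not enter its counts. Ligases outside the list that were higher were not counted.

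Several ligases on the list were lower. RNF122 had a difference of -1.75 (adjusted p = 1.37e-05), MKRN1 of -1.62 (adjusted p = 0.000721) and RNF11 of -1.51 (adjusted p = 0.000404). The lysosomal protease CTSL1, cathepsin L, was lower (difference -1.48, adjusted p = 0.00122; 2 of 2 probes). The initiator caspase CASP9 was lower (difference -1.32, adjusted p = 8.15e-05). A ubiquitin fusion gene named UB-EP52 was lower (difference -1.32, adjusted p = 0.00235), with FBXO3, RNF31 and FBXO18 completing the group. Among the members that were higher, PSMA1, an alpha subunit of the proteasome core, rose by 0.90 (adjusted p = 0.00362; 3 of 3 probes), and the E2 enzymes UBE2D4 (1.13, adjusted p = 0.00946) and UBE2E1 (0.67, adjusted p = 0.00356) were higher. COPS3, a signalosome subunit, was higher by 0.69 (adjusted p = 0.0200). ECM29, a proteasome-associated protein, did not pass the test (-0.61, adjusted p = 0.274). UBE2G1 was higher (0.83, adjusted p = 0.0300), though not without control fish 1 (adjusted p = 0.0513). COPS3 and UBE2G1 were the calls lost without control fish 2 or refed fish 2. Calpains, the calcium-activated proteases of muscle, did not pass the test, with CAPN1 at -0.11 and CAPN2 at 0.01.

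Genes of ribosome assembly had the largest share of higher members among the 15 functional lists. Of 20 tested, 13 were higher and 1 was lower, against 11.9% and 25.6% of named genes, and the median difference was 0.77. Without control fish 1 the counts were 13 and 2, with a median of 0.66. Under quantile normalization they were 12 and 2, with a median of 0.62, and with the 9 arrays alone in the model 9 and 0. The mean level of the list ran from 2.33 to 2.64 in refed fish and from 1.50 to 1.92 in control fish, with no overlap. Within slides its median was 0.64, 1.17 and 0.76. Those higher spanned transcription of ribosomal DNA, processing of the precursor RNA and export of the subunits.

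TSR1, which acts in late maturation of the small subunit, measured 6.27, 6.16, 6.40, 6.34 and 6.16 in refed fish and 3.84, 4.82, 5.30 and 4.79 in control fish. The groups did not overlap and the difference was 1.58 (SE 0.22, adjusted p = 1.8e-05), a 2.98-fold higher level, with 1.29 without control fish 1. NMD3, the export adaptor of the large subunit, measured 4.20, 3.65, 4.26, 3.54 and 3.60 in refed fish and 2.56, 2.98, 2.91 and 2.68 in control fish. All refed fish lay above the control range (difference 1.07, SE 0.19, adjusted p = 0.000275), and all 5 probes of the gene had the same sign. TWISTNB, the RPA43 subunit of RNA polymerase I that transcribes ribosomal DNA, measured 2.21, 1.96, 2.71, 2.26 and 1.85 in refed fish and 0.68, 1.13, 1.08 and 1.10 in control fish. Control fish 1 was the lowest of the controls, and without it the difference was 1.09 instead of 1.20 (adjusted p = 0.00135 and 0.000220).

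NOB1, the nuclease that makes the last cut of small subunit RNA, was higher by 1.12 (adjusted p = 0.000210; 3 of 3 probes). Nucleolin (NCL), an abundant organiser of the nucleolus, was higher by 0.97 (adjusted p = 0.000518; 3 of 3 probes). GPATCH4, a nucleolar protein, was higher by 1.31 (adjusted p = 0.000527). PA2G4, an ErbB3-binding protein found in the nucleolus, was higher by 1.11 (adjusted p = 0.0141). WDR3 (0.94), the import receptor IPO7 (0.84) and the GTPase GTPBP4 (0.71) were higher too, as were PNO1, RBM19 and RCL1. Of these, PNO1 and RCL1 were not called without control fish 1 (adjusted p = 0.0584 and 0.165). POLR1D, a subunit shared by RNA polymerases I and III, was the exception and was lower (difference -0.58, adjusted p = 0.0118). The small nucleolar protein NHP2L1 did not pass the test (-0.48, adjusted p = 0.132), and was lower without control fish 1 (adjusted p = 0.00889).

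**Figure D3:**
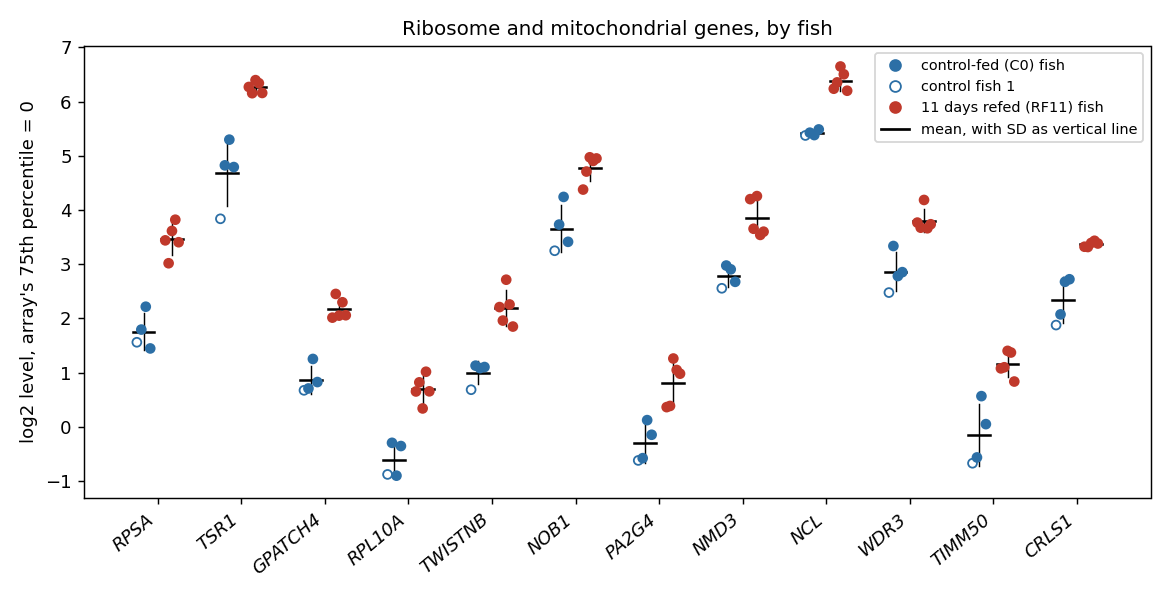
Levels of ribosome assembly, translation and mitochondrial genes in each refed (RF11, 5 fish) and control-fed (C0, 4 fish) trout, in log2 units relative to the 75th percentile of each array. Points are fish, the open circle is control fish 1, black bars are group means and vertical lines SD. In TSR1, NMD3 and RPSA every refed fish lies above every control fish.

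Translation factors and ribosomal proteins were higher in part. Of 27 tested, 9 were higher and 1 was lower, against 11.9% and 25.6% of all named genes. The list median was 0.40. Under array median scaling the counts were 14 and 0, and without control fish 1 they were 7 and 2. With the 9 arrays alone in the model they were 4 and 1. RPSA, a protein of the small ribosomal subunit, had the largest difference in this direction of the 641 named genes. It measured 3.44, 3.02, 3.61, 3.82 and 3.41 in refed fish and 1.56, 1.79, 2.22 and 1.45 in control fish. Refed fish lay wholly above controls (difference 1.71, SE 0.23, adjusted p = 1.19e-05), a 3.26-fold higher level, and 3 of 3 probes had the same sign. RPL10A of the large subunit was higher by 1.30 (adjusted p = 0.00145; 3 of 3 probes) and RPS29 of the small subunit by 0.84 (adjusted p = 0.0136).

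Subunits of the initiation factor eIF3, which loads the small subunit with messenger RNA, were higher as a set of 3: EIF3D by 0.83 (adjusted p = 0.000697), EIF3M by 0.71 (adjusted p = 0.00293) and EIF3E by 0.63 (adjusted p = 0.00857). EIF2B5, the catalytic subunit of the factor that recharges eIF2, was higher by 0.80 (adjusted p = 0.0101). EIF2S2, the beta subunit of eIF2, was higher by 0.59 (adjusted p = 0.0132) but not without control fish 1 (adjusted p = 0.0583), and the same held for the ATPase OLA1 (adjusted p = 0.0403 and 0.0897). The helicase EIF4A2 was lower (-0.77, adjusted p = 0.00794). Ribosomal protein RPL23 (-0.29, adjusted p = 0.344) and the alanyl-tRNA synthetase AARS (-0.03, adjusted p = 0.967) did not pass the test.

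None of the 7 chaperone genes tested passed the threshold, and the median of the list was -0.13. Only 7 of the 45 genes on this list had a name here, so the count does not describe chaperones as a whole. Relative to all probes it was -0.07, -0.23 under quantile normalization and 0.19 without the filter on dim probes. Array median scaling cannot change this relative value, since it shifts all probes of an array by the same amount. At an unadjusted p under 0.05 limma gave 0 higher and 2 lower, and with the unmoderated contrast 0 and 1 passed after adjustment. DNAJC12, a co-chaperone, was lower without control fish 4 or refed fish 5, and HSP30 without control fish 3 or refed fish 6. HSP90AA1, the inducible cytosolic chaperone of myosin folding, differed by 0.21 (adjusted p = 0.385), HSP90AB1 by 0.21 (adjusted p = 0.395) and TCP1, of the ring chaperonin that folds actin, by -0.25 (adjusted p = 0.258). The small heat shock protein HSP30 had the widest difference (-2.06, SE 0.80, adjusted p = 0.0661). DNAJB9, a co-chaperone of the endoplasmic reticulum, differed by 0.36 (adjusted p = 0.470) and was above background on 2 of 4 control arrays.

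Mitochondrial genes that were higher serve import, lipid synthesis and translation in the organelle, with 1 assembly factor, 1 scaffold protein and 1 citric acid cycle enzyme among them. Of 19 tested, 9 were higher and 0 were lower, against 11.9% and 25.6% of all named genes. The list median was 0.51. Without control fish 1 the counts were 9 and 2, and with the 9 arrays alone in the model 5 and 0. Within slides the median was 0.03, 0.70 and 0.34, close to 0 on slide 1. TIMM50, a receptor of the inner membrane import channel, measured 1.08, 1.10, 1.40, 1.37 and 0.84 in refed fish and -0.67, -0.56, 0.57 and 0.05 in control fish. No refed fish fell within the control range (difference 1.31, SE 0.20, adjusted p = 6.14e-05).

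CRLS1, which makes the mitochondrial lipid cardiolipin, was higher by 1.03 (adjusted p = 7.92e-05; 2 of 2 probes). NSUN4 and TFB1M, which methylate mitochondrial ribosomal RNA, were higher by 0.97 (adjusted p = 0.000886) and 0.72 (adjusted p = 0.00382). MRRF, which recycles mitochondrial ribosomes, was higher by 0.90 (adjusted p = 0.00628), and TBRG4, a regulator of mitochondrial messenger RNA, by 0.94 (adjusted p = 0.00166). BCS1L, an assembly factor of respiratory complex III, was higher by 0.59 (adjusted p = 0.0386), and prohibitin (PHB), a scaffold of the inner membrane, by 0.51 (adjusted p = 0.0218). The citric acid cycle enzyme DLST was higher (0.54, adjusted p = 0.0374) but not without control fish 1 (adjusted p = 0.138). Subunits of the respiratory chain did not pass the test over all fish: COX5B was at -0.22 (adjusted p = 0.330), NDUFA3 at 0.05 (adjusted p = 0.898) and NDUFS1 at -0.72 (adjusted p = 0.0986). UQCR10, a small subunit of complex III, had the lowest value of the list (-0.87, adjusted p = 0.0628). Both NDUFS1 (-1.04, adjusted p = 0.0182) and UQCR10 (-1.14, adjusted p = 0.0236) were lower without control fish 1.

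The list of cell division and DNA replication genes held no call. Of 32 tested by limma, 0 were higher and 0 were lower, against 11.9% and 25.6% of all named genes. At an unadjusted p under 0.05 the counts were 0 and 1, and the median difference was -0.11. Relative to all probes the median was -0.05, -0.10 under quantile normalization and 0.21 without the filter on dim probes. The normexp alternative called 1 higher and 4 lower, and the replication factor CDC45L was lower without control fish 1 (-1.22, adjusted p = 0.0417). CDCA3 was lower without refed fish 5 and the helicase RECQL4 was higher without control fish 3. Differences ran from -0.80 to 0.55. Mitotic cyclin CCNB1 was at 0.04 (SE 0.25, adjusted p = 0.928) and DNA topoisomerase TOP2A at 0.03 (SE 0.30, adjusted p = 0.952). The count does not show that the listed genes were equal in both groups. Nor does the list hold every named gene of division and replication. Outside it, POLD4, a subunit of DNA polymerase delta, was lower by limma (-1.09, adjusted p = 0.000121). ANKLE2 (-1.17, adjusted p = 0.000450) and RAD51AP1 (-0.68, adjusted p = 0.0476) were lower as well. Genes outside the list that were higher were not counted.

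Of 10 chromatin modifiers tested, 2 were higher and 3 were lower, against 11.9% and 25.6% of all named genes. So few members do not set the list apart from those shares. The list median was -0.25, or -0.19 relative to all probes. The relative median was -0.17 under quantile normalization and 0.07 without the filter on dim probes. Under array median scaling 2 were higher and 1 was lower. KDM4A, a demethylase of histone H3 lysine 9, was not well above background on any RF11 array and was at least 3.16-fold lower (adjusted p = 0.000251). EHMT1, a methyltransferase of the same lysine, was higher by 1.07 (adjusted p = 0.00102), with only 2 of 4 control arrays above background. CXXC1, which binds unmethylated CpG, was lower (difference -0.97, adjusted p = 0.00174), as was MSL3 of a histone acetylation complex (-0.70, adjusted p = 0.00894). Its partner MSL1 was higher (0.51, adjusted p = 0.0377), a call lost without control fish 1 (adjusted p = 0.163) and likewise without control fish 4 or without refed fish 1, 2, 5 or 6. SETDB1, another methyltransferase of this lysine, did not pass (-0.24, adjusted p = 0.411).

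Sarcomere genes were called in equal number in each direction, with 3 higher and 3 lower of 22 and a median of 0.01. All named genes had 11.9% higher and 25.6% lower. The higher members were TCAP, CAPZA1 and CKM, the creatine kinase also counted among the glycolysis and sugar genes. Under array median scaling the counts were 6 higher and 2 lower. The list median there was 0.34, close to the median of 0.27 of all probes. Without control fish 1 the counts were 1 and 2. Without control fish 3, 5 were lower, with MYL1 and the M-band protein MYOM2 added. MYOZ1, a Z-disc protein that binds calcineurin, measured -1.53, -1.12, -0.50, -0.83 and -0.95 in refed fish and 0.13, 0.74, -0.21 and 1.67 in control fish. Refed and control fish were fully separated (difference -1.57, SE 0.36, adjusted p = 0.00308). LMO7, a protein of cell junctions and the nuclear envelope, was lower too (-1.62, adjusted p = 0.00154).

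TCAP, telethonin, which caps titin at the Z-disc, depended on 1 fish. It measured 6.87, 5.87, 5.85, 6.53 and 6.43 in refed fish and 3.13, 5.43, 5.47 and 5.26 in control fish, where control fish 1 lay far below the other controls. The difference of 1.49 (adjusted p = 0.0134) fell to 0.92 without that fish (adjusted p = 0.0727). The actin-capping subunit CAPZA1 (adjusted p = 0.0385 and 0.168 without control fish 1) and the actin-binding protein XIRP2 (adjusted p = 0.0136 and 0.0714) lost their calls in the same way. Skeletal alpha-actin ACTA1 (-0.14, adjusted p = 0.683) and troponin C TNNC2 (-0.17, adjusted p = 0.682) did not pass the test.

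No extracellular matrix gene was higher in refed fish and some were lower. Of 29 tested, 8 were lower and 0 were higher, and with the 75th percentile scaling all 29 differences were negative, from -1.69 to -0.02, with a median of -0.52. The share lower (8 of 29) is near the 25.6% of all named genes. Without control fish 1, 11 of 29 were lower and the list median was -0.65. With the fish number as a block, 11 were lower as well. The count was sensitive to scaling, with 2 lower under array median scaling, where the list median was -0.19, and 13 under quantile normalization. The fibroblast markers of the tissue shifted the same way, without a call over all fish. They include matrix genes such as COL1A1, described below, and are therefore no separate observation.

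SVEP1, a large adhesion protein of the matrix, measured -0.60, -0.73, -1.29, -0.56 and -0.56 in refed fish and 0.89, 0.28, 1.38 and 1.21 in control fish. Again the ranges were apart (difference -1.69, SE 0.27, adjusted p = 7.63e-05). COL5A1, the collagen V chain that sets fibril diameter, was lower (difference -1.17, adjusted p = 0.00165; 2 of 2 probes). The protease ADAMTS1 (-0.98, adjusted p = 0.0142), the metalloproteinase MMP23 (-0.81, adjusted p = 0.00268), the adhesion receptor ITGB1 (-0.79, adjusted p = 0.0117) and the small proteoglycan OGN, mimecan (-0.64, adjusted p = 0.0126), were lower. COL5A2 lost its call without control fish 1 (adjusted p = 0.0128 and 0.0630). The main fibrillar collagen COL1A1 measured 8.48, 7.62, 8.22, 8.73 and 8.32 in refed fish and 8.45, 9.40, 8.83 and 9.55 in control fish. The ranges overlapped, and COL1A1 did not pass the test (difference -0.78, SE 0.32, adjusted p = 0.0808; adjusted p = 0.0471 without control fish 1), although all 13 of its probes had the same sign. Periostin (POSTN, -0.50, adjusted p = 0.209) and keratocan (KERA, -0.24, adjusted p = 0.338) did not pass.

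Of the myogenic regulators, the basic helix-loop-helix factors were not alike. Of 10 tested genes of the list, 3 were higher and 1 was lower, against 11.9% and 25.6% of all named genes. The lower member was XIRP2, the actin-binding protein also counted among the sarcomere genes. Without control fish 1 the counts were 3 and 0. The list median of 0.01 was -0.12 under quantile normalization. MYOD1, the determination factor of the lineage, measured 4.33, 3.78, 4.15, 4.01 and 3.78 in refed fish and 3.36, 3.28, 2.79 and 3.38 in control fish. Refed fish lay above controls without overlap (difference 0.81, SE 0.24, adjusted p = 0.0166), and so they did for MYF6, also known as MRF4, a factor of mature fibres (difference 0.76, SE 0.23, adjusted p = 0.0214). HES6, a repressor that favours myogenic differentiation, was higher by 0.62 (adjusted p = 0.00887). Myogenin (MYOG), the factor of terminal differentiation, measured 0.47, 0.40, 0.04, 0.19 and 0.17 in refed fish and 0.55, 0.19, 0.17 and 0.44 in control fish. Here the ranges overlapped (difference -0.09, SE 0.16, adjusted p = 0.714), as they did for MYF5 (difference 0.10, SE 0.20, adjusted p = 0.739). PAX7, the satellite cell factor, was above background on 1 array in each group and was not tested.

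**Figure D4:**
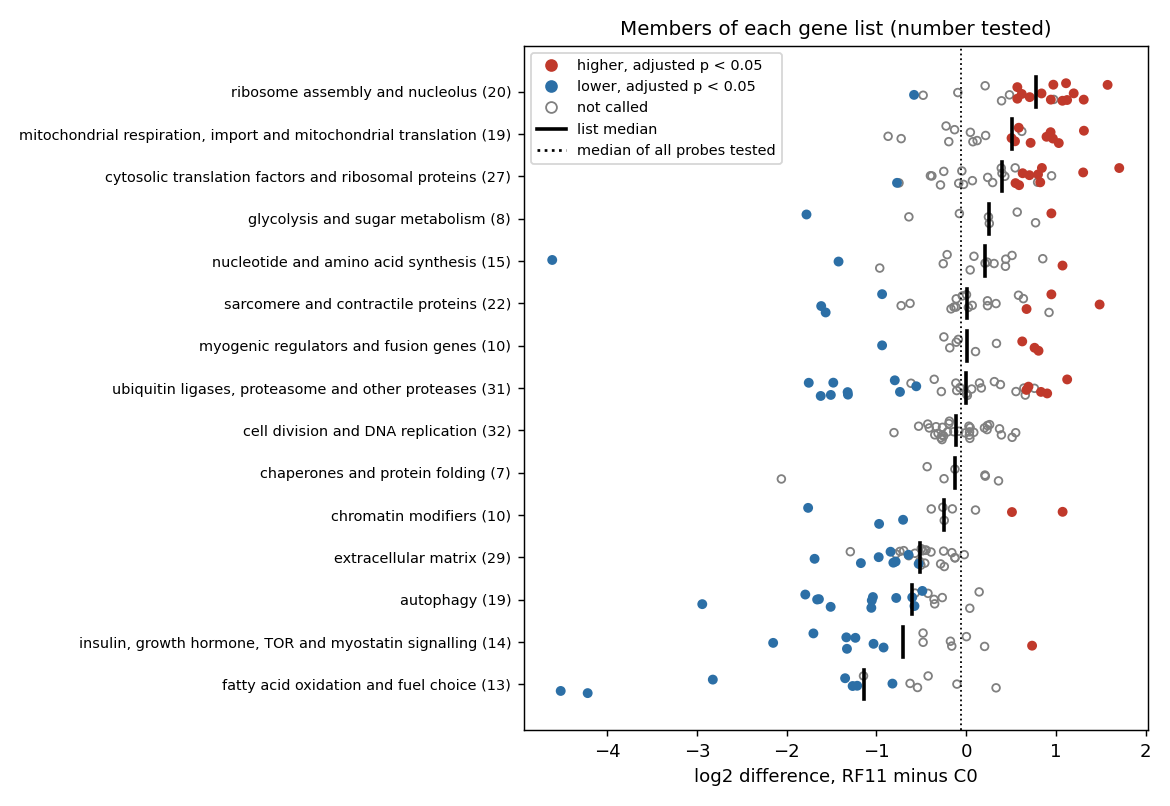
Log2 difference between refed (RF11) and control-fed (C0) trout of every tested gene in each gene list. Filled red and blue points passed the test (adjusted p under 0.05), open grey points did not, black bars are list medians and the dotted line is the median of all probes (-0.06). Ribosome assembly lies to the right of that line, with 13 of 20 genes higher, and fuel choice (7 of 13 lower) and autophagy (12 of 19 lower) to the left.

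Some genes outside the lists also had large differences. They are the named genes with the largest rise or fall among those called with and without control fish 1 and with no overlap between groups. ENG2B, a homeobox gene of the engrailed family that marks a muscle fibre type in zebrafish embryos, measured -0.39, -0.99, -1.34, -1.39 and -1.03 in refed fish and 1.77, 3.11, 1.72 and 2.52 in control fish. All refed fish lay far below the controls (difference -3.31, SE 0.29, adjusted p = 6.95e-08), a 9.90-fold lower level. TRIM39, a ubiquitin ligase of the tripartite motif family, was lower (difference -2.65, adjusted p = 9.17e-05). NUP98, a nuclear pore protein (-2.43, adjusted p = 3.03e-05), and POLK, a lesion-bypass DNA polymerase (-2.35, adjusted p = 0.000169), were lower. Their probes were above background on only 1 and 2 of 5 RF11 arrays, so the size of these fitted differences rests on levels too dim to be measured well. In the other direction ACVR1B, a type I receptor for activin and myostatin-like ligands, measured 2.86, 2.28, 2.59, 2.87 and 2.52 in refed fish and 1.02, 1.36, 1.49 and 1.64 in control fish. Refed fish lay above controls (difference 1.25, SE 0.23, adjusted p = 0.000343).

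The levels of these genes in the other conditions place RF11 in the course of refeeding. They share the controls and the model with the contrast above and are given as a description, with no test. TAT averaged 1.20 ± 0.84 in fasted fish, -4.72 ± 0.32 at 4 days, -4.79 ± 0.45 at 11 days and -4.20 ± 0.20 at 36 days of refeeding, against -0.18 ± 1.06 in controls (mean ± SD). CPT1A averaged 3.03 ± 0.79, -1.32 ± 0.55, -2.25 ± 1.23 and -0.03 ± 1.08 in that order, against 2.27 ± 1.06. Both were below the control mean at all 3 refeeding times.

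MAP1LC3B averaged 3.91 ± 0.73 in fasted fish, then 2.19 ± 0.19, 1.55 ± 0.45 and 3.15 ± 0.13, against 3.19 ± 0.63 in controls. TSR1 averaged 6.76 ± 0.29 in fasted fish, then 6.65 ± 0.25, 6.26 ± 0.11 and 5.14 ± 0.19, against 4.69 ± 0.61. COL1A1 averaged 6.63 ± 0.70, 8.19 ± 0.41, 8.27 ± 0.41 and 9.17 ± 0.36, against 9.06 ± 0.51. As lists, ribosome assembly averaged 3.32, 2.76, 2.45 and 1.81, against 1.77 in controls. Its mean was thus highest in fasted fish on this scale and near the control mean at 36 days. This describes the 20 tested members, whose names depend on the part of the heat-map list that could be read. The study places ribosome biogenesis genes among those higher in refed than in fasted fish. Whether unnamed ribosome genes share the course given here was not tested. Cell division genes averaged -2.30, -0.91, -0.14 and -0.30, against -0.06, with the RF11 mean near that of controls.

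**Figure D5:**
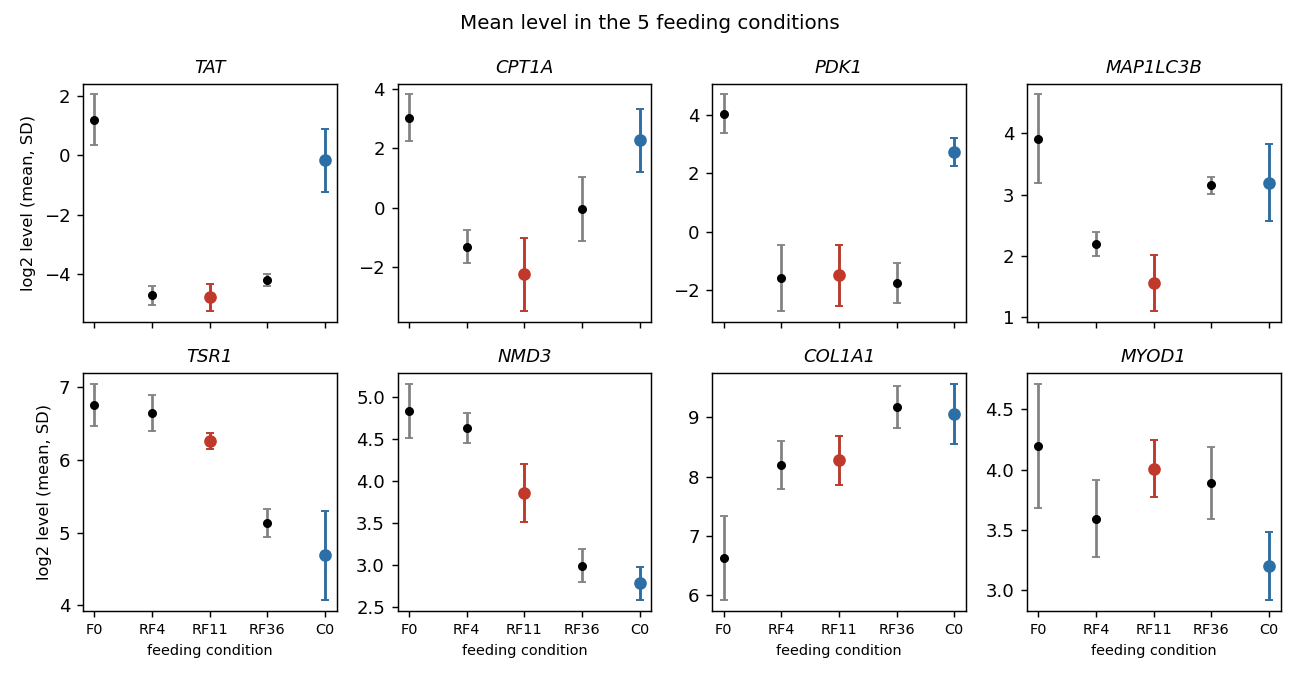
Mean level (bars ± SD over fish) of 8 genes in fasted (F0), refed (RF4, RF11, RF36) and control-fed (C0) trout, in log2 units relative to the 75th percentile of each array. TAT and CPT1A at RF11 (-4.79 ± 0.45 and -2.25 ± 1.23) lie below the control means (-0.18 ± 1.06 and 2.27 ± 1.06).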

How the data were processed

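Fast muscle RNA of 23 trout was hybridised to 1-colour Agilent oligonucleotide arrays, 1 fish per array. The deposited scanner files, made by the authors with Agilent Feature Extraction 10.7.3.1 per the submitters' processing notes, hold a processed signal intensity per spot that is background-subtracted but not normalized between arrays. The authors' deposited table holds log2 values, and comparison with the scanner files showed each column to be log2 of that signal minus a constant (column medians 6.09); it was used as an alternative only. Gene names were taken from the scanner files and from the part of the study's heat-map list that could be read, whose values were not used.

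From the scanner files, spots of control type and outlier flags were left out, spots of 1 probe were averaged, and log2 intensity minus the array's 75th percentile was taken. A probe was tested where 4 arrays or more of either group measured it well above background (31987 of 60195); 137 probes missing on an array were dropped. limma 3.58.1 (R 4.3.3; tables with Python 3.11.15) fitted 5 group means over 23 arrays, and the RF11 minus C0 contrast was adjusted by Benjamini-Hochberg over all probes tested. The fit was tested on simulated data. Nothing in the labels says more of the fish than a number. The p-values set the difference between 5 and 4 fish against the spread between fish within all 5 groups, pooled over 23 arrays.

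Genes are given by their probe with the highest mean. Named are list members (largest differences and those discussed in the study), and the 10 largest rises and falls called with and without control fish 1, bright on all arrays of the higher group and without overlap. Members and lists were chosen with earlier results of these data known. A digestive proteinase sharing the symbol LCP1 was kept out of the leukocyte markers. Alternatives were other scaling, background correction, filters, models, blocks and each fish left out. Sequences and positions of probes were not used here. Control numbers only name fish. Some genes that the rule for named genes would give are not reported here.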

Additional observations from a re-analysis of the deposited data

Results flagged for a closer look

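For 76 genes given by the rule for named genes, 152 sets of 4 or 5 fish were examined for a fish far from the others (Dixon's ratio). In 8 sets a fish stood out, which is near the share of about 1 in 20 that chance alone gives. The values below are therefore a description only. Of the 8, 4 were control fish 1. In it TCAP was at 3.13, against 5.26 to 5.47 in the other controls. CALCOCO1 was at 1.46 there, against 2.52 to 2.58. TWISTNB was at 0.68, against 1.08 to 1.13. SETDB1 was at 0.24, against -0.72 to -0.59. In control fish 4, TP53INP2 was at 3.45, against 2.76 to 2.86 in the others. In control fish 3, TRIM63 was at -1.14, against -0.68 to -0.60. Among refed fish, AARS was at 0.27 in fish 5, against -0.34 to -0.27, and SVEP1 was at -1.29 in fish 4, against -0.73 to -0.56.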

How the results depend on the processing

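Leaving out each fish in turn gave between 5200 and 8858 differing probes, of which 62.9% to 74.9% were higher. With the fish number as a replicate block the count was 5935 and 72.8% were higher. Of the 240 called named genes, 35 lost their call, 4 of them in the autophagy list (8 of 19 lower). For refed and control fish numbered 1, 2 and 4, deviations from the group mean correlated over probes at 0.30, -0.19 and 0.14. These values do not settle whether equal numbers link fish, and the labels give only the number. With the slide as a block the count was 7645 and 8 of 240 lost their call, ATG12 and RCL1 among them. The share higher was 93.9% under array median scaling and with the authors' deposited values (7429 probes in both), 52.3% with normexp (10394 probes) and 79.3% when the model held the 9 refed and control arrays alone, where the count was 3934. An adjusted p under 0.01 left 3762 probes and a change of 2-fold or more left 3068. Among settings added after the data were seen, all without control fish 1, median scaling gave 88.0% higher, and the model of the remaining 8 arrays gave 3695 probes. Of the 641 named genes tested, 89 lost and 53 gained a call under array median scaling and 129 uncalled ones moved by more than their spread between fish; 32 lost and 46 gained one under quantile normalization. Leaving out 1 fish cost 20 to 42 of the 240 calls, most without control fish 2. None of the 240 called named genes that a setting tested changed sign in any of 22 settings. Dim genes limit precision: a probe below background in 1 group gives a bound only.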

Other observations

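Outside the gene lists, further named genes were called with and without control fish 1 and showed no overlap between groups; those below were chosen after their values were seen. Lower in refed fish were genes of innate immunity. These were TRIM21, a cytosolic antibody receptor and ubiquitin ligase (-2.20, adjusted p = 6.02e-05), and NLRC3, a NOD-like receptor (-2.17, adjusted p = 0.000750). Lower too were CYP46A1, which hydroxylates cholesterol (-2.10, adjusted p = 1.74e-05), SMOX, which oxidises spermine (-1.51, adjusted p = 0.000255), and LIPE, the hormone-sensitive lipase (-0.75, adjusted p = 0.0384). The iron store FTH1 (-1.11, adjusted p = 0.000833) and the selenium carrier SEPP1 (-1.21, adjusted p = 0.00103) were lower. POLR3GL, a subunit of RNA polymerase III, was lower (-1.60, adjusted p = 5.73e-06).

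Higher in refed fish were RBM25, a splicing regulator (0.94, adjusted p = 0.00128), DUS4L, a transfer RNA modifying enzyme (0.90, adjusted p = 0.00163), and the DNA damage kinase ATM (0.95, adjusted p = 0.00320). All differences are log2, RF11 minus C0, by limma over 5 and 4 fish.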
